A study of Saccharomyces cerevisiae with 24 samples.

Results

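The state of wild-type budding yeast after 3 h in minimal medium was compared with that of the same strain in rich medium, gene by gene. The comparison rests on 4 of the 24 RNA-seq libraries of the series: 2 of WT cells cultured for 3 h in the minimal SL medium and 2 of untreated WT cells taken at 0 h from log phase in the rich YPL medium. Both groups are the CEN.PK laboratory background of Saccharomyces cerevisiae with no edited gene, and the 3 h cells had been washed once with SL before the culture. The libraries were picked by their sample titles, but earlier results of these data were known when the comparison was chosen. Of 7126 genes listed, 6503 reached 1 FPKM (fragments per gene, scaled by gene length and library total) in at least 2 of the 24 libraries and were tested. The other groups of the series appear where a test of the 3 h state needs them: WT at 1 h in SL, and 3 mutants of the same background (rph1Δ, set2Δ and H3K36A) at 0 h and 3 h. RPH1 encodes a demethylase of lysine 36 on histone H3 and SET2 the methyltransferase of that residue, while H3K36A cells carry a histone H3 with alanine in its place.

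Yeast meets the loss of a rich medium by slowing growth and by preparing for stress. Active TORC1 and protein kinase A keep ribosome genes on and hold back the general stress factors Msn2 and Msn4. When the kinases lose activity, genes for ribosomes are turned down, and genes for protective proteins, storage carbohydrate and autophagy are turned up. A minimal medium also takes away ready-made amino acids, nucleobases and vitamins, so that each biosynthetic pathway has its own sensor to answer, such as Gcn4 for amino acids and Met4 for sulfur.

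Levels are given as the deposited FPKM of each library. Fold changes are log2 differences of 3 h over 0 h, from edgeR's quasi-likelihood test on the deposited read counts with TMM scaling. The value after ± is an approximate standard error: the absolute log2 fold change divided by the square root of the test's F statistic. The words "rose", "fell" and "called" mean a Benjamini-Hochberg adjusted p under 0.05 over all 6503 genes. TMM scaling and FPKM differ by a constant: the ratio of scaling factors between 3 h and 0 h was -0.19 on the log2 scale, so that a fold change read off the FPKM lies lower than the fitted one by that amount. The median of all genes was 0.02 with TMM, 0 with median-of-ratios scaling and -0.11 with library totals. The 4 libraries held between 6950652 and 7189126 counts. Nothing in the labels states that the 2 libraries of a group came from separate cultures, so the p-values measure only spread between libraries. That spread was estimated from all 24 libraries in a single fit. The WT libraries at 3 h lay farther apart than those at 0 h, as given below. A fit of only these 2 groups called fewer genes (2043 higher and 2091 lower, against 2314 and 2211). In such bulk samples fewer cells of a kind and less RNA per cell cannot be told apart.

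The libraries carried the marks of their labels. WT cells expressed the a-factor gene MFA1 at 377 and 412 FPKM at 3 h, against 139 and 122 FPKM at 0 h, and the alpha-factor gene MF(ALPHA)1 stayed between 1.81 and 5.43 FPKM in all 6 WT libraries, as in cells of mating type a. Across the 6 libraries of each strain, RPH1 lay between 0 and 0.23 FPKM in rph1Δ against 19.3 to 43.7 in WT. SET2 was at 0 in all 6 set2Δ libraries, against 9.54 to 26.8 FPKM in WT. The histone H3 genes HHT1 and HHT2 lay at no more than 0.7 and 0.35 FPKM in H3K36A, against at least 577 and 792 FPKM in WT. These counts do not show the alanine itself, and the near absence of reads from both genes is more than a changed residue. Where the H3 of these cells is encoded was not examined, and comparisons of H3K36A with WT may include that difference. The rph1Δ libraries expressed MF(ALPHA)1 at 369 to 6310 FPKM, against 1.81 to 5.43 FPKM in WT, so these 2 strains expressed the pheromones of opposite mating types and every difference between them may include that. SET2 overlaps YJL169W, as the listed coordinates show.

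Transcripts of most genes differed between cells after 3 h in SL and cells at 0 h in YPL. No group was kept for 3 h in rich medium, so medium, wash and elapsed time cannot be told apart. At 3 h, 2314 genes were higher (35.6% of those tested) and 2211 were lower (34%), while 1978 were not called. Where the counts of a gene group below lie near these shares, they say little about that group. Changes of at least 2-fold numbered 1096 up (16.9%) and 1135 down (17.5%), and changes of at least 16-fold 116 up and 43 down. The 12 highest and the 12 lowest are described next.

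The highest riser was GRE1 (YPL223C, chromosome XVI, 128632 to 129138, in sacCer3), a hydrophilin, one of the small water-loving proteins that protect against desiccation. It had 30205 and 29866 FPKM at 3 h, against 36.1 and 29.2 FPKM at 0 h, a change of 10.03 ± 0.13 (adjusted p 1.69e-27). Its transcripts took 1.53% and 1.51% of all counts at 3 h, against 0.00183% and 0.00148% at 0 h. Next came SPG1 and SPG4, named for a need in stationary phase. SPG1 had 2774 and 3292 FPKM at 3 h, against 9.86 and 11.8 FPKM at 0 h (8.31 ± 0.18), and SPG4 had 4987 and 5891 FPKM at 3 h, against 19.2 and 22.9 FPKM at 0 h (8.20 ± 0.14). The 2 libraries of each group lay close together for these genes.

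The rest of the 12 highest covered metabolism, folding and the cell surface. FDH1, formate dehydrogenase, had 1515 and 1738 FPKM at 3 h, against 11.1 and 12.4 FPKM at 0 h (7.30 ± 0.17), and PDC6, the minor pyruvate decarboxylase, had 528 and 433 FPKM at 3 h, against 4.20 and 4.62 FPKM at 0 h (6.95 ± 0.14). The cytosolic Hsp70 SSA3, a form made under stress, had 3932 and 4218 FPKM at 3 h, against 42.7 and 37.5 FPKM at 0 h (6.86 ± 0.11). HPF1, a cell wall mannoprotein, rose by 6.78 ± 0.15, and SHH3, a homologue of a succinate dehydrogenase membrane subunit, by 6.74 ± 0.17. PMA2 encodes the minor form of the plasma membrane proton pump; it had 451 and 306 FPKM at 3 h, against 5.19 and 4.90 FPKM at 0 h (6.41 ± 0.17), whereas the main form PMA1 had 489.8 and 337 FPKM at 3 h, against 1024 and 1191 FPKM at 0 h (-1.23 ± 0.13). HSP26, a small chaperone that holds unfolded proteins, had 26969 and 30698 FPKM at 3 h, against 415 and 366 FPKM at 0 h (6.40 ± 0.12). FMP16, a mitochondrial protein, rose by 6.30 ± 0.12 and CTT1, the cytosolic catalase, by 6.26 ± 0.15.

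At the other end stood metal and nutrient transport. FRE7, a reductase-family gene tied to copper need, had 0.70 and 1.27 FPKM at 3 h, against 205 and 336 FPKM at 0 h (-7.90 ± 0.45), and CTR1, the high-affinity copper transporter, had 5.18 and 5.35 FPKM at 3 h, against 791 and 1121 FPKM at 0 h (-7.31 ± 0.31). CTR1 overlaps YPR123C, so part of its reads cannot be assigned for certain. CTR3, a further copper transporter, had 27.1 and 30.3 FPKM at 3 h, against 1241 and 1498 FPKM at 0 h (-5.38 ± 0.23), and FRE1, the reductase that readies copper and iron for uptake, had 3.49 and 2.90 FPKM at 3 h, against 79.2 and 107 FPKM at 0 h (-4.67 ± 0.26). The peptide transporter PTR2 had 1.75 and 2.85 FPKM at 3 h, against 189 and 187 FPKM at 0 h (-6.15 ± 0.14). Among amino acid permeases, TAT1 had 6.11 and 5.68 FPKM at 3 h, against 249.8 and 259 FPKM at 0 h (-5.24 ± 0.13) and BAP3 had 2.06 and 1.84 FPKM at 3 h, against 79.2 and 81.04 FPKM at 0 h (-5.17 ± 0.19). All of these fell to a small part of their rich-medium level in both 3 h libraries.

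The other strong fallers had several roles. ARO10, which decarboxylates breakdown products of aromatic amino acids, had 4.75 and 5.25 FPKM at 3 h, against 223 and 222 FPKM at 0 h (-5.28 ± 0.10). PDR12, a pump for weak acids, had 2.76 and 2.55 FPKM at 3 h, against 75.2 and 87.99 FPKM at 0 h (-4.75 ± 0.15), and GIC2, an effector of the polarity switch Cdc42, had 1.37 and 1.33 FPKM at 3 h, against 40.4 and 51.6 FPKM at 0 h (-4.89 ± 0.34). SCW10, a wall protein similar to glucanases, fell by 5.10, with an overlap with YMR304C-A. BSC1 had 0.44 and 0 FPKM at 3 h, against 11.4 and 10.9 FPKM at 0 h, the zero coming from a library with no count.

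The most abundant transcripts were replaced in part. The 10 genes with the most FPKM at 3 h were TDH3, HSP12, GRE1, HSP26, FBA1, GPM1, DDR2, CPR1, PGK1 and FMP16. At 0 h they included CCW12, TDH3, CYC1, FBA1, RPS31, HYP2, RPS20, RPL10 and SPO24. Of these, GPM1, CPR1, PGK1, HYP2 and RPL10 overlap dubious or other reading frames. TDH3, the main glyceraldehyde-3-phosphate dehydrogenase, had 34105 and 37599.6 FPKM at 3 h, against 13817 and 13335 FPKM at 0 h (1.59 ± 0.11), and HSP12, a membrane-protecting small heat shock protein, had 29141 and 30939.8 FPKM at 3 h, against 1882 and 1391 FPKM at 0 h (4.39 ± 0.19). DDR2, a multistress gene of unknown biochemistry, had 12685 and 14969.6 FPKM at 3 h, against 524 and 419.9 FPKM at 0 h (5.07 ± 0.14). Against these, CYC1, iso-1-cytochrome c, had 729 and 862 FPKM at 3 h, against 11082 and 10358 FPKM at 0 h (-3.56 ± 0.10), and CCW12, a wall mannoprotein, had 3528 and 4697 FPKM at 3 h, against 16136 and 16319 FPKM at 0 h (-1.79 ± 0.15). The 10 genes with the most counts took 13.6% and 14.7% of all counts at 3 h, against 6.18% and 6.17% at 0 h.

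**Figure D1:**
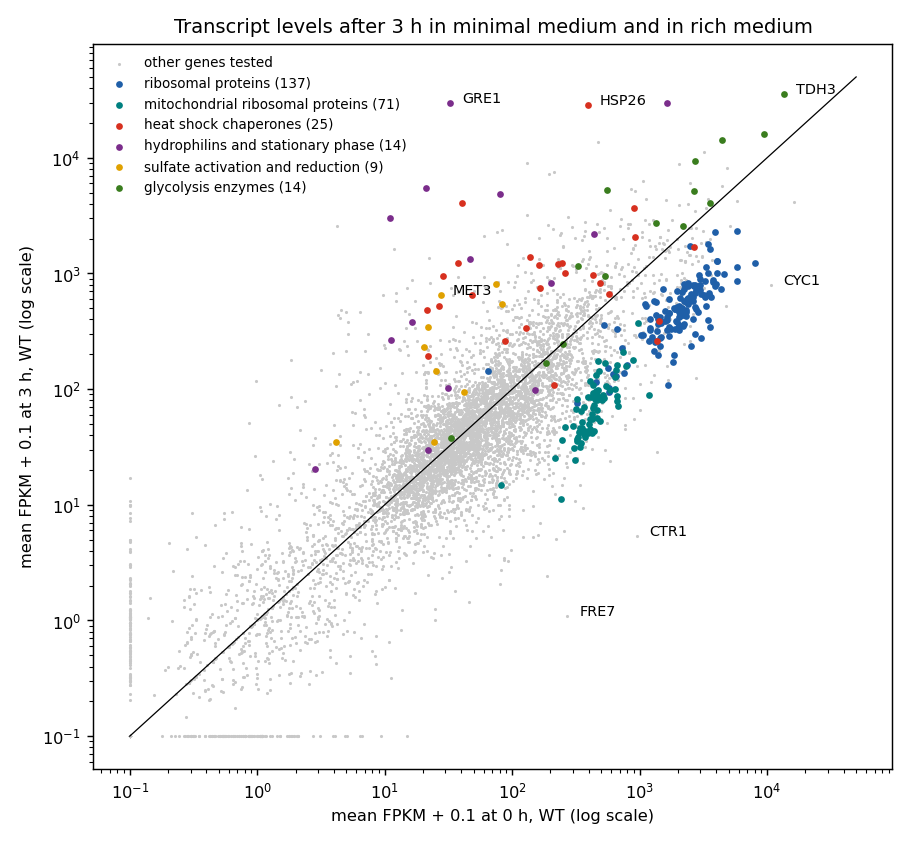
Each point is a gene, with its mean FPKM at 3 h on the vertical axis and at 0 h on the horizontal axis, both log axes after adding 0.1; coloured points mark named groups. Most hydrophilin and chaperone genes lie above the diagonal, GRE1 farthest, and most ribosomal protein genes below it.

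Promoters are shown for some of these groups. The window read for each gene ran from base 400 to base 101 before its start codon in the R64 reference, which has the coordinates of the sacCer3 build named by the submitters; 6499 tested genes had a window. Of 5 windows shown, TSL1 stands for trehalose genes and the stress element, MET3 for sulfate genes and the Cbf1 E-box, NOP1 for ribosome assembly with its PAC and RRPE motifs, PRE3 for the proteasome and PACE, and CTR1 for copper uptake and the Mac1 site. Capitals mark the motif on either strand.
TSL1 (chrXIII:70224-70523, plus strand): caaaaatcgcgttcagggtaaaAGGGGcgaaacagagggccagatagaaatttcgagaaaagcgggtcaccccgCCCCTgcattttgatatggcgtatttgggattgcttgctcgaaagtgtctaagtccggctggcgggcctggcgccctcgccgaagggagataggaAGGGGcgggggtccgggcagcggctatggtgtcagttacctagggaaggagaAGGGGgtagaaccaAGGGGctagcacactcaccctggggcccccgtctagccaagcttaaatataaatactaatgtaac
MET3 (chrX:455839-456138, plus strand): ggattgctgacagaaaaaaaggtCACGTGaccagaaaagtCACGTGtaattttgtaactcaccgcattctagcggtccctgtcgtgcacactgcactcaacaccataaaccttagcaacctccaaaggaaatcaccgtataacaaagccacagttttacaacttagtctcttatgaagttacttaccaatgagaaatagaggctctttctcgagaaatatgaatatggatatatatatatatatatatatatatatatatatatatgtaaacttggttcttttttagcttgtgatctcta
NOP1 (chrIV:426964-427263, plus strand): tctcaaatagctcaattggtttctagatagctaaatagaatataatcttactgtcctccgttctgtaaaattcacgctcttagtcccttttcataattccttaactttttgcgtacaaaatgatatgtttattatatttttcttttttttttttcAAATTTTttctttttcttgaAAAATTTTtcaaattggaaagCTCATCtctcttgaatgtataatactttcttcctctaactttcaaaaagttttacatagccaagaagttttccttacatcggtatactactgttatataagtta
PRE3 (chrX:434763-435062, plus strand): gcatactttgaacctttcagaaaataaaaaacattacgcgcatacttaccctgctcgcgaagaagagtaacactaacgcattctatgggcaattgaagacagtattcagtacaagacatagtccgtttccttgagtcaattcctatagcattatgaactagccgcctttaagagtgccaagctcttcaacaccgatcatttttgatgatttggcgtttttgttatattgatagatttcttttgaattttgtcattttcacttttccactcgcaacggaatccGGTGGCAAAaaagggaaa
CTR1 (chrXVI:785808-786107, plus strand): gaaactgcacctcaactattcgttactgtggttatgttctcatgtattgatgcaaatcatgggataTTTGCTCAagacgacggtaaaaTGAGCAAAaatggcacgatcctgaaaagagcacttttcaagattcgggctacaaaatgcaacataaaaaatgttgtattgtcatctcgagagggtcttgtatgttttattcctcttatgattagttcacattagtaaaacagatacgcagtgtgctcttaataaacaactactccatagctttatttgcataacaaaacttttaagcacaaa
The TSL1 window held 5 stress elements, MET3 held 2 E-boxes, NOP1 held 1 PAC and 3 RRPE matches of which a pair overlap, PRE3 held 1 PACE and CTR1 held 2 Mac1 sites. These windows were picked for their matches.

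Searched on both strands, the stress element CCCCT (bound by Msn2 and Msn4) lay in 23.4% of all windows. It lay in 39.1% of windows of genes that rose at least 2-fold, in 54.3% for those that rose at least 16-fold and in 15.2% for those that fell at least 2-fold. Trehalose genes held it in 8 of 9 windows. The heat shock element, searched as GAANNTTC, lay in 14 of 25 chaperone windows (56%) against 12.5% of all. The PAC motif GATGAG lay in 17.9% of all windows, in 30 of 48 for the small subunit processome and in 38 of 57 for 60S assembly factors. For RRPE, searched as AAAATTT, the share was 23.9% of all windows, and it was found in 39 of 48 and 51 of 57 for the same groups. Ribosomal protein genes held RRPE in 45 of 137 windows and mitochondrial ribosomal protein genes in 12 of 71. The E-box CACGTG lay in 4.22% of all windows and in 8 of 9 for sulfate genes, and PACE, GGTGGCAAA, in 1.12% of all and in 22 of 37 for the proteasome. The Mac1 site TTTGCTCA was found in 1.37% of all windows and in 3 of 29 for copper and iron uptake. No motif contains another, and a match says only that the letters are there.

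Genes of stress protection rose to high levels. Of 14 hydrophilin and stationary phase genes, 13 rose and 1 fell, with a median of 4.56 against 0.02 for all genes. SIP18, a hydrophilin that binds phospholipids, had 4809 and 4875 FPKM at 3 h, against 92.9 and 66.4 FPKM at 0 h (6.12 ± 0.14). SPI1, a wall protein made at the end of growth, rose by 5.02 ± 0.13, PIR3, a wall protein with internal repeats, by 4.75 ± 0.13 and FMP45, a membrane protein of the cell edge, by 4.74 ± 0.10. STF2, a hydrophilin also linked to the ATP synthase inhibitor, had 1908 and 2495 FPKM at 3 h, against 444 and 438 FPKM at 0 h (2.51 ± 0.12). NOP6, a nucleolar protein placed with hydrophilins, fell by 0.43 ± 0.10. The group's share of all counts was 3.13% and 3.26% at 3 h, against 0.12% and 0.102% at 0 h.

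Chaperones divided by compartment. Of 25, 21 rose and 4 fell, with a median of 2.37, and the 4 that fell all work inside mitochondria. The disaggregase HSP104 had 1425 and 1345 FPKM at 3 h, against 137 and 138 FPKM at 0 h (3.52 ± 0.08), and the small chaperone HSP42 had 1290.0 and 1157 FPKM at 3 h, against 38.01 and 37.5 FPKM at 0 h (5.21 ± 0.10). The stress-made Hsp70 SSA4 rose by 5.27 ± 0.11 and the Hsp110 SSE2 by 4.67 ± 0.09. Inside mitochondria, the Hsp70 SSC1 had 304 and 219 FPKM at 3 h, against 1334 and 1387 FPKM at 0 h (-2.19 ± 0.12), and the chaperonin HSP60 had 384 and 385 FPKM at 3 h, against 1423 and 1408 FPKM at 0 h (-1.69 ± 0.08). Its partner HSP10 and the J-protein MDJ1 fell by 0.47 ± 0.11 and 0.76 ± 0.07. HSP78, the mitochondrial disaggregase, rose by 1.56 ± 0.08, so the compartment did not move as one. Together the 25 took 6.12% and 6.37% of counts at 3 h, against 1.55% and 1.53% at 0 h. In the endoplasmic reticulum, 6 of 16 folding genes rose and 5 fell, near the shares of all genes tested (35.6% and 34%). Its main Hsp70 KAR2 rose by 1.54 ± 0.07, and JEM1, a J-protein there, fell by 1.62 ± 0.21.

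Peroxide and superoxide defence gained at most steps. Of 20 genes 17 rose and 2 fell, with a median of 1.73. CTT1 had 721 and 573 FPKM at 3 h, against 10.3 and 8.93 FPKM at 0 h, and the peroxisomal catalase CTA1 had 956 and 806 FPKM at 3 h, against 195 and 194 FPKM at 0 h (2.37 ± 0.08). GPX1, a glutathione peroxidase, had 792 and 1124 FPKM at 3 h, against 107 and 110.1 FPKM at 0 h (3.34 ± 0.14). The thiol peroxidases AHP1 and PRX1 rose by 2.65 ± 0.10 and 2.42 ± 0.09. The cytosolic thioredoxin reductase TRR1 fell to 121 and 125 FPKM at 3 h, against 304 and 290.1 FPKM at 0 h (-1.08 ± 0.08), while its mitochondrial counterpart TRR2 had 229 and 273 FPKM at 3 h, against 52.9 and 49.5 FPKM at 0 h (2.49 ± 0.12).

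Storage carbohydrate genes rose for synthesis and for breakdown alike. In trehalose metabolism 8 of 9 genes rose and none fell. TSL1, a regulatory subunit of the synthase whose window is printed above, had 125 and 102 FPKM at 3 h, against 20.1 and 22.3 FPKM at 0 h (2.61 ± 0.12); the catalytic subunits TPS1 and TPS2 rose by 2.37 ± 0.08 and 2.56 ± 0.10. The trehalases NTH1, NTH2 and ATH1 rose by 2.08 ± 0.07, 1.61 ± 0.09 and 2.21 ± 0.08. The remaining subunit TPS3 had 29.4 and 21.9 FPKM at 3 h, against 28.4 and 29.6 FPKM at 0 h and was not called (0.01 ± 0.11). PGM2, phosphoglucomutase, which feeds both stores, rose by 3.17 ± 0.10. Of 12 glycogen genes 11 rose and 1 fell. The protein phosphatase targeting subunits GIP2 and PIG2 rose most (4.42 ± 0.17 and 3.90 ± 0.10), and a further such subunit, GAC1, fell by 0.62 ± 0.19, a call lost without WT 0 h replicate 2 (-0.44) or WT 3 h replicate 2 (-0.47). The branching enzyme GLC3 had 282 and 287 FPKM at 3 h, against 44.6 and 54.5 FPKM at 0 h (2.71 ± 0.09), the synthases GSY1 and GSY2 rose by 1.41 ± 0.13 and 1.9 ± 0.07, and the debranching enzyme GDB1 rose by 2.16 ± 0.10.

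Genes of protein breakdown were mostly higher, first those of the proteasome. Of 37 proteasome genes 34 rose and none fell; the median was 0.77, and 9 rose at least 2-fold. RPN4, the factor that activates proteasome genes through PACE, had 378 and 307 FPKM at 3 h, against 121 and 130.1 FPKM at 0 h (1.64 ± 0.10), and BLM10, an activator cap, had 83.9 and 84.1 FPKM at 3 h, against 30.8 and 31.5 FPKM at 0 h (1.62 ± 0.07). The catalytic subunit PRE3, with its PACE in the window above, had 1059 and 1289.9 FPKM at 3 h, against 561 and 545 FPKM at 0 h (1.28 ± 0.10), and the assembly factor UMP1 had 865 and 856 FPKM at 3 h, against 418 and 429.6 FPKM at 0 h (1.21 ± 0.08). The changes were small but shared by nearly all subunits.

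In autophagy, the path that delivers cytoplasm to the vacuole, 20 of 22 core genes rose and none fell. ATG8, the tag on the growing membrane, had 434 and 510.0 FPKM at 3 h, against 88.2 and 95.6 FPKM at 0 h (2.55 ± 0.10). ATG14, of the lipid kinase complex, rose by 2.76 ± 0.20, ATG7, which activates Atg8, by 2.61 ± 0.12, and ATG31, of the initiation complex, by 2.22 ± 0.13. The lipid kinase VPS34 itself had 16.8 and 15.5 FPKM at 3 h, against 16.3 and 17.9 FPKM at 0 h and was not called. All 10 receptors of selective autophagy rose. The nuclear and endoplasmic reticulum receptors ATG39 and ATG40 rose by 2.98 ± 0.14 and 2.29 ± 0.10, the mitochondrial receptor ATG32 by 1.12 ± 0.11 and the peroxisomal receptor ATG36 by 2.15 ± 0.10. ATG34, a receptor for vacuolar enzymes that overlaps YOL083C-A, rose by 3.51 ± 0.09. Of 13 vacuolar hydrolase genes 12 rose and none fell, among them the mannosidase AMS1 (3.20 ± 0.11), proteinase B PRB1 (2.30 ± 0.10) and carboxypeptidase Y PRC1, with 1373 and 1307 FPKM at 3 h, against 361 and 358 FPKM at 0 h (2.09 ± 0.08).

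**Figure D2:**
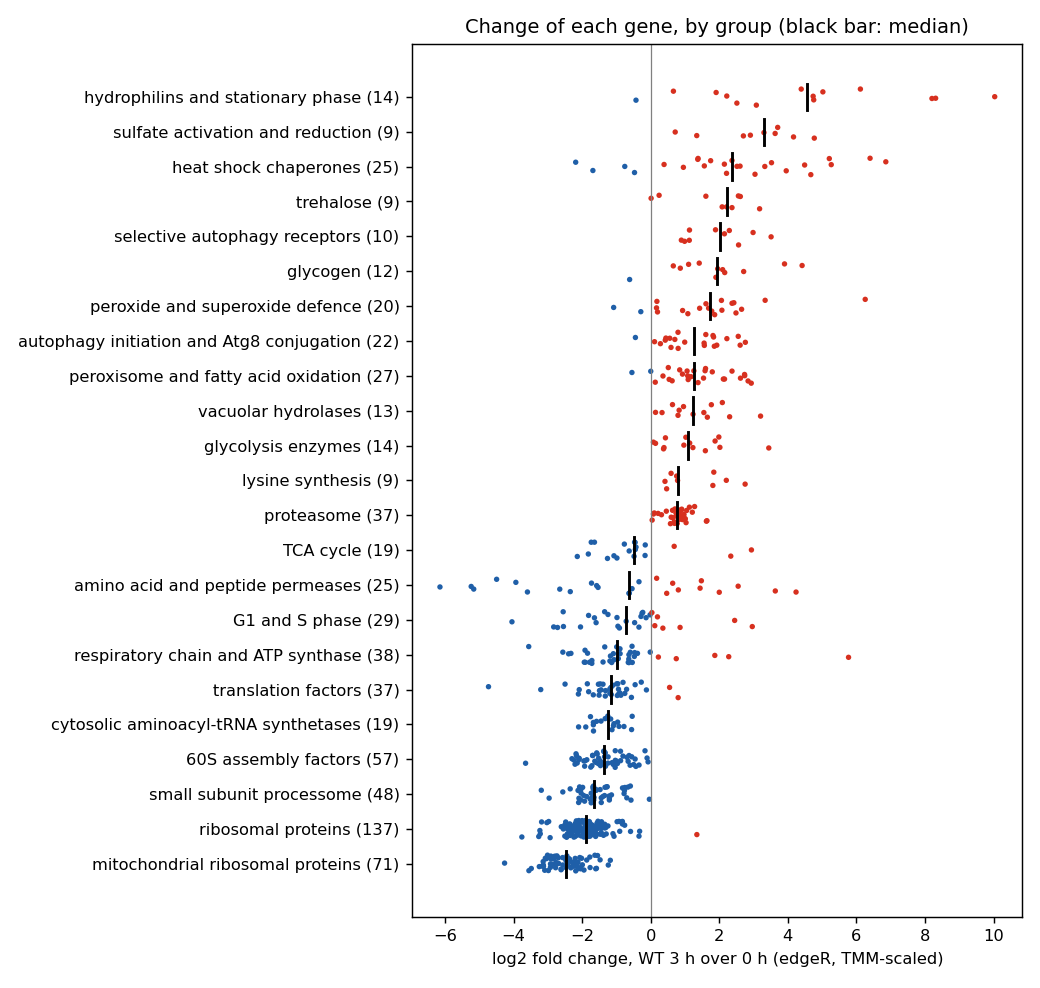
Each point is a gene, placed by its log2 fold change of WT at 3 h over 0 h, with a row per gene group (number of tested genes in brackets) and a black bar at the group's median. The median is 4.56 for hydrophilins, 2.37 for chaperones, -1.88 for ribosomal proteins and -2.47 for mitochondrial ribosomal proteins.

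Genes of ribosome production were lower. Of 137 cytosolic ribosomal protein genes 135 fell and 1 rose, with a median of -1.88, and the group's share of counts was 3.41% and 3.46% at 3 h, against 15.2% and 14.6% at 0 h. RPL9A had 107 and 107 FPKM at 3 h, against 1642 and 1685 FPKM at 0 h (-3.76 ± 0.10), and RPL3, a large subunit protein near the catalytic centre, had 342 and 341 FPKM at 3 h, against 3579 and 3505 FPKM at 0 h (-3.19 ± 0.10). RPS26B had 229 and 238 FPKM at 3 h, against 2631 and 2400.4 FPKM at 0 h (-3.24 ± 0.10). RPL15B was the exception, with 133 and 152 FPKM at 3 h, against 72.3 and 55.7 FPKM at 0 h (1.34 ± 0.12); RPL41B had -0.32 ± 0.19 and was not called. Many of these genes are near-identical pairs whose reads the counting may have divided, so single paralogs are less certain than the group.

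Assembly factors fell with the proteins they assemble. Of 48 small subunit processome genes 47 fell and none rose (median -1.66), and of 57 60S assembly factors 54 fell and none rose (median -1.37). NOP1, the methylase of the box C/D particles, had 61.1 and 56.1 FPKM at 3 h, against 622 and 602 FPKM at 0 h (-3.19 ± 0.08), and its partners NOP58 and NOP56 fell (-2.97 and -2.57), both overlapping other reading frames. DBP2, a DEAD-box helicase, had 16.4 and 12.2 FPKM at 3 h, against 211 and 199 FPKM at 0 h (-3.65 ± 0.15), and SPB1, a methylase of the 60S particle, had 11.8 and 10.7 FPKM at 3 h, against 65.7 and 60.5 FPKM at 0 h (-2.30 ± 0.13). FAF1, in the small subunit set, had 39.1 and 40.6 FPKM at 3 h, against 46.5 and 47.1 FPKM at 0 h and was not called.

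The polymerases that make ribosomal and transfer RNA divided. Of 36 genes of RNA polymerases I and III, 22 fell and 7 rose. The polymerase I subunits RPA49, RPA34 and RPA135 fell by 1.96, 1.81 and 1.80, and RRN11, of its core factor, fell to 4.25 and 2.92 FPKM at 3 h, against 29.7 and 24.9 FPKM at 0 h (-2.74 ± 0.24). MAF1, the repressor of polymerase III, rose by 1.07 ± 0.09, RRN10, of the upstream activation factor, by 1.12 ± 0.15, and TFC3, of the factor that places polymerase III, by 0.85 ± 0.10.

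Translation genes were mostly lower too. Of 37 translation factor genes 34 fell and 2 rose, with a median of -1.16, and all 19 cytosolic aminoacyl-tRNA synthetase genes tested fell, 14 of them at least 2-fold. The fungal elongation factor YEF3 had 238 and 202 FPKM at 3 h, against 1396 and 1449.6 FPKM at 0 h (-2.50 ± 0.10), and NIP1 and RPG1, of initiation factor eIF3, fell by 2.09 and 2.11. CAM1, related to an elongation factor subunit, was higher at 3 h (0.80 ± 0.07), as was TEF2 (0.55 ± 0.11), while TEF1 had -1.81 ± 0.10. TEF1 and TEF2 encode the same protein in near-identical reading frames, so the split of reads between them is uncertain. MES1, the methionine enzyme, had the lowest change of the synthetases (-2.11 ± 0.10), and it overlaps another gene. The glutamate enzyme GUS1 fell by 0.54.

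Mitochondrial ribosomal protein genes fell without exception among those tested. All 71 tested fell, each at least 2-fold, with a median of -2.47 and a range from -4.27 to -1.18. MRPL4 had 12.6 and 9.56 FPKM at 3 h, against 235 and 251 FPKM at 0 h (-4.27 ± 0.16), MRP13 had 24.5 and 23.9 FPKM at 3 h, against 294 and 325 FPKM at 0 h (-3.49 ± 0.10) and MRPL40 had 32.99 and 30.2 FPKM at 3 h, against 333 and 354 FPKM at 0 h (-3.25 ± 0.11). Among the least lowered was MRPS12, with 359 and 386 FPKM at 3 h, against 981 and 947 FPKM at 0 h (-1.18 ± 0.09). The mitochondrially encoded member VAR1 was listed at 0 in all 4 libraries, and mitochondrial genes are not followed further.

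Most respiration genes were lower. The electron transport chain and ATP synthase turn the oxidation of carbon sources into ATP. Of 38 such genes 31 fell and 4 rose, with a median of -0.97, and their share of counts was 1.57% and 1.69% at 3 h, against 4.36% and 4.41% at 0 h. CYT1, cytochrome c1, had 356 and 304 FPKM at 3 h, against 1858 and 1926 FPKM at 0 h (-2.33 ± 0.08), and the internal NADH dehydrogenase NDI1 had 191 and 135 FPKM at 3 h, against 1049 and 1147 FPKM at 0 h (-2.57 ± 0.13). ATP synthase subunits ATP2 and ATP20 fell by 1.91 and 1.94. The mitochondrial ADP/ATP carrier PET9 had 528 and 509.7 FPKM at 3 h, against 4793 and 4805 FPKM at 0 h (-3.02 ± 0.08), and HAP4, the activating subunit of the regulator of respiration genes, had 78.2 and 55.6 FPKM at 3 h, against 376 and 375 FPKM at 0 h (-2.30 ± 0.13). In the TCA cycle 15 of 19 genes fell and 3 rose. The isocitrate dehydrogenase subunits IDH1 and IDH2 fell by 1.82 and 2.14, IDH2 with an overlap, and SDH1, of succinate dehydrogenase, fell by 1.64.

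Minor forms rose where the main forms fell. These pairs were picked with their values in view. Of mitochondrial citrate synthases, CIT1 had 627 and 661 FPKM at 3 h, against 2446 and 2457 FPKM at 0 h (-1.74 ± 0.08) and CIT3 had 526 and 506 FPKM at 3 h, against 77.2 and 76.6 FPKM at 0 h (2.94 ± 0.08); the peroxisomal CIT2 had 752 and 701 FPKM at 3 h, against 166 and 163 FPKM at 0 h (2.33 ± 0.09). The external NADH dehydrogenases moved apart in the same way. NDE2 had 547 and 619 FPKM at 3 h, against 11.5 and 12.8 FPKM at 0 h (5.77 ± 0.11), and NDE1 had 396 and 377 FPKM at 3 h, against 1128 and 1109 FPKM at 0 h (-1.34 ± 0.07). Cytochrome c did likewise, with 74.9 and 76.9 FPKM at 3 h, against 20.8 and 26.6 FPKM at 0 h for CYC7 (1.87 ± 0.22) beside -3.56 for CYC1, so that CYC7 stayed well below CYC1 in level. For cytochrome oxidase subunit Va and Vb, COX5B had 19.2 and 32.3 FPKM at 3 h, against 5.29 and 6.86 FPKM at 0 h (2.27 ± 0.30), and COX5A had 1802 and 1832 FPKM at 3 h, against 2962 and 3069 FPKM at 0 h (-0.54 ± 0.08). In these last pairs the form with the lower FPKM rose and remained the lower.

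In other pairs the order of levels turned over. ADH2, the alcohol dehydrogenase that consumes ethanol, had 5211 and 5162 FPKM at 3 h, against 965 and 887 FPKM at 0 h (2.68 ± 0.12), and ADH1, which makes it, had 1198 and 1411 FPKM at 3 h, against 3611 and 3762 FPKM at 0 h (-1.31 ± 0.11). The hexokinase HXK2 fell to 45.8 and 44.2 FPKM at 3 h, against 784 and 761 FPKM at 0 h (-3.91 ± 0.10), while the glucokinase GLK1, which overlaps YCL042W, had 1041 and 955 FPKM at 3 h, against 466 and 473 FPKM at 0 h (1.28 ± 0.07). For phosphoglycerate dehydrogenase, which opens serine synthesis, SER33 had 319.7 and 317 FPKM at 3 h, against 89.02 and 90.6 FPKM at 0 h (2.02 ± 0.07), and SER3, which overlaps the noncoding SRG1 that represses it, had 38.7 and 32.6 FPKM at 3 h, against 113 and 118 FPKM at 0 h (-1.50 ± 0.11). The last pair is in pyrimidine synthesis. For orotate phosphoribosyltransferase, URA10 had 264 and 358 FPKM at 3 h, against 42.5 and 40.5 FPKM at 0 h (3.10 ± 0.14), and URA5 had 194 and 202 FPKM at 3 h, against 597 and 596 FPKM at 0 h (-1.40 ± 0.09). NDE2 and PMA2 also differ from these in scale: NDE2 passed NDE1, whereas PMA2 remained below PMA1.

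**Figure D3:**
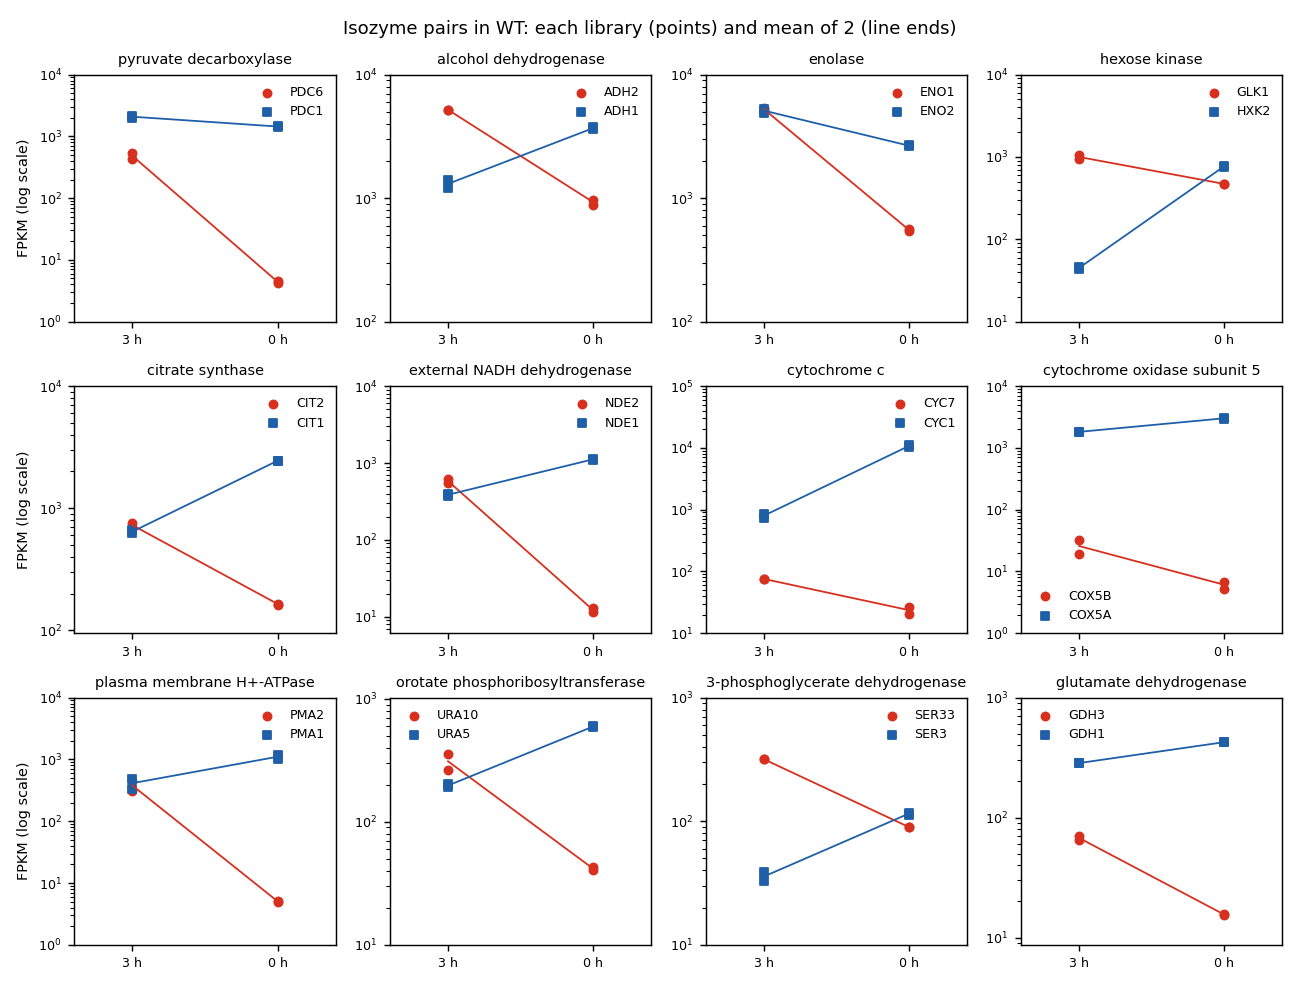
Each panel plots FPKM on a log axis for a pair of isozymes in WT, with 3 h left and 0 h right, points for the 2 libraries of each time and lines joining their means. Levels of ADH2 and ADH1, GLK1 and HXK2, and NDE2 and NDE1 cross between the times, and those of CYC7 and CYC1 do not.

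Glycolysis genes gained transcripts. Of 14 enzyme genes 12 rose and none fell (median 1.08), and they took 9.87% and 10.7% of counts at 3 h, against 4.43% and 4.38% at 0 h. The enolase ENO1 had 5193 and 5357 FPKM at 3 h, against 542 and 565 FPKM at 0 h (3.44 ± 0.11), and its isozyme ENO2 had 4918 and 5307 FPKM at 3 h, against 2694 and 2621 FPKM at 0 h (1.14 ± 0.11). TDH1, a minor glyceraldehyde-3-phosphate dehydrogenase, had 987 and 1322 FPKM at 3 h, against 318 and 334 FPKM at 0 h (2.02 ± 0.14). PGK1 and GPM1, which catalyse the next reversible steps, rose by 1.99 ± 0.12 and 1.88 ± 0.12, and both overlap other reading frames. The phosphofructokinase subunits PFK1 and PFK2, at one of the steps that gluconeogenesis bypasses, were the genes of this set not called (0.14 ± 0.08 and 0.08 ± 0.10). Of 15 gluconeogenesis and glyoxylate genes 9 rose and 3 fell. FBP1, the enzyme opposite to phosphofructokinase, had 2795 and 2966 FPKM at 3 h, against 1272 and 1274 FPKM at 0 h (1.37 ± 0.11), and MDH2, cytosolic malate dehydrogenase, had 3143 and 2378 FPKM at 3 h, against 383 and 369 FPKM at 0 h (3.07 ± 0.12).

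Genes for acetate and fatty acid use also rose. ACS1, acetyl-CoA synthetase, had 2402 and 2086 FPKM at 3 h, against 243 and 237 FPKM at 0 h (3.42 ± 0.09). The acetate permease ADY2 had 3141 and 3264 FPKM at 3 h, against 129 and 134 FPKM at 0 h (4.80 ± 0.13), and its relative ATO3 rose by 2.93 ± 0.13 while ATO2 fell by 2.21. The lactate transporter JEN1 had 1783 and 1695 FPKM at 3 h, against 1297 and 1354 FPKM at 0 h (0.58 ± 0.09), and the carnitine acetyltransferases CAT2 and YAT2 rose by 2.04 ± 0.07 and 2.21 ± 0.09. Of 27 genes of peroxisomes and fatty acid oxidation 24 rose and 1 fell, with a median of 1.26. The thiolase POT1 had 592 and 589.7 FPKM at 3 h, against 110.4 and 109 FPKM at 0 h (2.62 ± 0.08), and PXA1, a fatty acid importer of the peroxisome, and PEX18, a co-receptor for its proteins, rose by 2.84 ± 0.08 and 2.93 ± 0.15. The hexose transporter HXT5, made in slow growth, had 1869 and 1725 FPKM at 3 h, against 93.9 and 88.4 FPKM at 0 h (4.49 ± 0.09). HXT6, whose sequence is nearly that of HXT7, had 2.86 and 4.38 FPKM at 3 h, against 29.01 and 34.3 FPKM at 0 h (-2.93 ± 0.22).

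Sulfate assimilation genes were higher at 3 h. This pathway takes sulfate from the medium to sulfide and then to cysteine, methionine and the methyl donor S-adenosylmethionine, under the activator Met4. All 9 genes of sulfate uptake, activation and reduction rose, with a median of 3.30. ATP sulfurylase MET3, whose window with 2 E-boxes is printed above, had 715 and 595 FPKM at 3 h, against 28.5 and 26.2 FPKM at 0 h (4.77 ± 0.10). MET16, the reductase of activated sulfate, had 341 and 350.1 FPKM at 3 h, against 20.2 and 23.7 FPKM at 0 h (4.16 ± 0.11), and MET10, of sulfite reductase, had 252 and 213 FPKM at 3 h, against 22.02 and 18.7 FPKM at 0 h (3.70 ± 0.09). The rest of this set had higher levels at 3 h too. The kinase MET14 rose by 3.63 ± 0.09, the sulfate permeases SUL1 and SUL2 by 2.91 ± 0.08 and 3.30 ± 0.15, MET5, of sulfite reductase, by 2.70 ± 0.10, and MET1 and MET8, which make its siroheme, by 1.34 ± 0.11 and 0.71 ± 0.14.

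Downstream of sulfide the genes divided. Of 12 genes of the methionine and SAM cycle 6 rose and 5 fell. Methionine synthase MET6 had 859 and 648 FPKM at 3 h, against 60.1 and 62.9 FPKM at 0 h (3.80 ± 0.12), and the folate reductase MET13 had 137 and 78.8 FPKM at 3 h, against 11.2 and 12.9 FPKM at 0 h (3.35 ± 0.18). MET17, which fixes sulfide, and MET2, which readies its acceptor, rose by 2.83 ± 0.10 and 4.82 ± 0.10, with overlaps of YLR302C and YNL276C. SAH1, which clears S-adenosylhomocysteine, had 276 and 221 FPKM at 3 h, against 785 and 826 FPKM at 0 h (-1.51 ± 0.09), and SAM4, a methyltransferase that recycles homocysteine with SAM, had 33.98 and 32.00 FPKM at 3 h, against 189 and 198 FPKM at 0 h (-2.36 ± 0.10). SAM synthetase SAM2 had 617 and 603 FPKM at 3 h, against 297 and 312 FPKM at 0 h (1.19 ± 0.07), and SAM1 had 168 and 132 FPKM at 3 h, against 259 and 253 FPKM at 0 h (-0.58 ± 0.08). In transsulfuration 4 of 8 rose and 3 fell: STR3, cystathionine beta-lyase, rose by 4.68 ± 0.10, and CYS4, which works the other way, fell by 0.90. Of the Met4 complex, 4 of 6 genes rose and none fell, the cofactors MET32 and MET28 by 4.41 ± 0.15 and 5.23 ± 0.13, and MET30, the ubiquitin ligase subunit that holds Met4 back, by 1.93 ± 0.07. MET4 itself had 52.2 and 49.5 FPKM at 3 h, against 51.2 and 52.1 FPKM at 0 h and was not called. Of 13 tested scavenging genes 9 rose and 3 fell; BDS1, a sulfatase, rose by 4.69 ± 0.16 and JLP1, a sulfonate dioxygenase, by 3.50 ± 0.17.

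Amino acid permease genes moved in both directions. Of 25 genes 9 rose and 15 fell. AGP3, a permease with a low affinity for several amino acids, had 223 and 210.4 FPKM at 3 h, against 15.2 and 10.9 FPKM at 0 h (4.24 ± 0.13). Methionine and SAM carriers MUP3, MMP1 and SAM3 rose by 3.63 ± 0.11, 2.55 ± 0.08 and 2.0 ± 0.09. MUP1, a methionine permease, had 81.2 and 66.2 FPKM at 3 h, against 108 and 105 FPKM at 0 h (-0.34 ± 0.10), a fall that was not called without WT 3 h replicate 2 (-0.24). Other carriers were lower as well. Beside TAT1 and BAP3, BAP2 had 28.4 and 24.7 FPKM at 3 h, against 181 and 200.2 FPKM at 0 h (-2.66 ± 0.11), DIP5 had 10.9 and 6.78 FPKM at 3 h, against 119 and 125 FPKM at 0 h (-3.60 ± 0.13) and the glutamine permease GNP1, which overlaps YDR509W, fell by 3.94. The general permease GAP1 rose by 1.48 ± 0.10.

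Amino acid synthesis showed no common direction. All 9 lysine genes rose, with a median of 0.78. Saccharopine reductase LYS9 had 818 and 855 FPKM at 3 h, against 138 and 146 FPKM at 0 h (2.75 ± 0.11), and LYS20, a homocitrate synthase, had 548 and 489.6 FPKM at 3 h, against 159.9 and 177 FPKM at 0 h (1.81 ± 0.10), against a change of 0.59 ± 0.09 for its isozyme LYS21. LYS1, saccharopine dehydrogenase, rose by 2.20 ± 0.12. Of 23 genes for histidine, aromatic amino acids and GCN4, 15 fell and 4 rose. The enzymes that open aromatic synthesis, ARO3 and ARO4, fell by 0.81 and 2.06, and ARO8 and ARO9, aromatic aminotransferases, by 1.84 and 2.19, ARO9 with an overlap. GCN4, the activator whose product is controlled at translation, had 2419 and 2535 FPKM at 3 h, against 2866 and 2721 FPKM at 0 h and was not called. In branched-chain synthesis 4 of 12 rose and 5 fell; LEU1 and LEU2 of the leucine branch rose by 2.22 ± 0.09 and 2.13 ± 0.09, and the aminotransferase BAT2 fell by 2.17 while BAT1 rose by 0.70 ± 0.08. Of 10 arginine synthesis genes 5 rose and 4 fell, and among the risers ARG3 changed by 2.34 ± 0.14. The arginase CAR1, not one of these 10, had 47.4 and 47.1 FPKM at 3 h, against 318 and 329 FPKM at 0 h (-2.58 ± 0.11).

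Other nitrogen genes moved as single enzymes. The NADP-dependent glutamate dehydrogenase GDH3 had 65.3 and 69.8 FPKM at 3 h, against 15.4 and 15.6 FPKM at 0 h (2.31 ± 0.13), its main isozyme GDH1 had 286 and 284 FPKM at 3 h, against 428 and 424 FPKM at 0 h (-0.39 ± 0.13), and GDH2, which breaks glutamate down, had 119 and 107 FPKM at 3 h, against 370.0 and 380.5 FPKM at 0 h (-1.54 ± 0.08). The ammonium permease MEP1 rose by 1.70 ± 0.11, and MEP3 fell by 1.24. Proline breakdown by PUT1 and PUT2 fell (-1.21 and -1.87). Of 22 genes under nitrogen catabolite repression or for allantoin, 8 rose and 11 fell, so those genes did not rise as a set.

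Nucleotide and one-carbon genes moved in both directions. Glycine cleavage rose, with 558 and 521 FPKM at 3 h, against 107 and 118 FPKM at 0 h for GCV1 (2.45 ± 0.08) and changes of 1.75 ± 0.11 and 2.15 ± 0.10 for GCV2 and GCV3; the mitochondrial C1-tetrahydrofolate synthase MIS1 fell by 2.34. In all 9 of 16 one-carbon genes rose and 7 fell. Of 19 purine genes 8 rose and 6 fell, near the shares of all genes tested (35.6% and 34%). ADE17 and ADE1 rose by 1.65 ± 0.15 and 1.13 ± 0.09. On the guanine branch GUA1 had 69.1 and 53.1 FPKM at 3 h, against 391 and 385 FPKM at 0 h (-2.48 ± 0.12), and IMD3 had 46.3 and 41.5 FPKM at 3 h, against 209 and 219 FPKM at 0 h (-2.10 ± 0.08). Of 16 pyrimidine genes 3 rose and 8 fell, the salvage enzyme FUR1 with 35.4 and 44.4 FPKM at 3 h, against 285 and 282 FPKM at 0 h (-2.64 ± 0.11).

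Vitamin genes rose more often than they fell. Of 24 genes for thiamine and vitamin B6, 17 rose and 5 fell. THI4, which makes the thiazole part of thiamine, had 155 and 151 FPKM at 3 h, against 8.25 and 9.86 FPKM at 0 h (4.27 ± 0.15). Paralogs of B6 synthesis moved in opposite directions: SNZ1 had 105 and 101 FPKM at 3 h, against 34.6 and 28.2 FPKM at 0 h (1.91 ± 0.10), and SNZ2 had 50.7 and 58.00 FPKM at 3 h, against 240.1 and 215 FPKM at 0 h (-1.87 ± 0.12). SNZ3 fell by 2.07; SNZ2 and SNZ3 are near-identical, as are THI5, THI11, THI12 and THI13.

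Copper and iron genes moved in both directions. Of 29 tested copper and iron genes 9 rose and 15 fell. The copper-binding metallothionein CRS5 had 896 and 979.6 FPKM at 3 h, against 42.6 and 32.5 FPKM at 0 h (4.83 ± 0.13). CUP1-1, the main metallothionein, had 61.1 and 97.97 FPKM at 3 h, against 2.29 and 2.29 FPKM at 0 h (5.26 ± 0.44); it has a copy, CUP1-2, and overlaps other features, so its level is uncertain. CUP2, the activator of metallothionein genes in copper excess, rose by 1.16 ± 0.09, with an overlap of YGL165C. On the iron side, the multicopper oxidase FET3 had 17.4 and 16.6 FPKM at 3 h, against 125 and 135 FPKM at 0 h (-2.75 ± 0.18), its partner FTR1 had 107 and 103 FPKM at 3 h, against 325 and 314 FPKM at 0 h (-1.41 ± 0.12) and the siderophore carrier SIT1 had 19.5 and 14.4 FPKM at 3 h, against 98.95 and 115 FPKM at 0 h (-2.47 ± 0.18). Not all iron genes fell, as FRE2 and FIT1 rose by 1.32 ± 0.20 and 1.22 ± 0.17.

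Phosphate genes mostly fell. Of 22 genes 13 fell and 4 rose. The high-affinity transporter PHO84 had 35.7 and 24.9 FPKM at 3 h, against 419 and 431 FPKM at 0 h (-3.62 ± 0.15), and GIT1, a carrier of glycerophosphoinositol, had 8.87 and 9.29 FPKM at 3 h, against 58.6 and 61.3 FPKM at 0 h (-2.53 ± 0.12). PHM8, a nucleotide phosphatase, went up, with 223 and 226 FPKM at 3 h, against 10.7 and 15.02 FPKM at 0 h (4.31 ± 0.12).

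Phospholipid genes had no common direction. The series concerns phosphatidylcholine, which yeast makes by methylating phosphatidylethanolamine with Cho2 and Opi3 or from choline by the Kennedy pathway. OPI3 had 1152 and 1143 FPKM at 3 h, against 643 and 638 FPKM at 0 h (1.03 ± 0.10), and CHO2 had 124 and 134 FPKM at 3 h, against 148 and 144 FPKM at 0 h and was not called (0.01 ± 0.09, and -0.18 with library totals). Upstream, CHO1, phosphatidylserine synthase, had 265 and 272 FPKM at 3 h, against 550.2 and 540.2 FPKM at 0 h (-0.83 ± 0.08), and the decarboxylases PSD1, which overlaps YNL170W, and PSD2 fell by 1.29 and 0.42. Of 12 Kennedy pathway genes 4 rose and 5 fell with TMM, near the shares of all genes tested (35.6% and 34%), and 2 rose and 6 fell with library totals. CPT1, cholinephosphotransferase, had 176 and 203 FPKM at 3 h, against 105 and 119 FPKM at 0 h (0.95 ± 0.08), the choline transporter HNM1 fell by 0.78 and the phospholipase NTE1 by 1.85. INO1, inositol-3-phosphate synthase and the best-known target of the same regulators, had 544 and 415 FPKM at 3 h, against 162 and 200.5 FPKM at 0 h (1.59 ± 0.10).

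Neutral lipid and sterol genes rose more often than they fell, less so with library totals. Of 20 triglyceride genes 13 rose and 3 fell (9 and 4 with library totals). PET10, a lipid droplet protein, had 2173 and 2085 FPKM at 3 h, against 365 and 367 FPKM at 0 h (2.73 ± 0.07), AYR1, a reductase of lipid droplets, had 973 and 1039 FPKM at 3 h, against 147 and 133 FPKM at 0 h (3.04 ± 0.08), and DGA1, the acyltransferase that makes triglyceride, rose by 1.31 ± 0.11. SLC1, which makes phosphatidic acid for membranes, fell by 1.84. Of 26 ergosterol genes 16 rose and 5 fell (12 and 9 with library totals), with 1312 and 1226 FPKM at 3 h, against 338 and 371 FPKM at 0 h for ERG25, the C-4 methyl sterol oxidase (2.03 ± 0.07), and 51.6 and 43.1 FPKM at 3 h, against 231 and 238 FPKM at 0 h for the last enzyme ERG4 (-2.12 ± 0.10). The very long chain elongases ELO2 and ELO3 fell (-2.50 and -3.78), while fatty acid synthase FAS1 rose by 0.80 ± 0.07.

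Regulators of the nutrient state moved in both directions. Of 19 genes of the protein kinase A, Sch9 and Msn2/4 network 11 rose and 4 fell (10 and 4 with library totals). Over all genes tested 35.6% rose and 34% fell, so being called says little by itself. The kinase subunit TPK2 had 238 and 223 FPKM at 3 h, against 59.5 and 67.3 FPKM at 0 h (2.05 ± 0.09), while TPK3 fell by 0.65. BCY1, the inhibitory subunit, had 428 and 367 FPKM at 3 h, against 201 and 204 FPKM at 0 h (1.16 ± 0.07). IRA2, which turns Ras off, rose by 1.80 ± 0.09, and RAS2 fell by 1.35. MSN2 had 35.7 and 25.4 FPKM at 3 h, against 31.1 and 35.6 FPKM at 0 h and was not called, and MSN4 fell by 0.52. Of 21 TORC1 genes 10 rose and 4 fell with TMM, and 5 and 6 with library totals, so no direction is given for them.

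Most genes for entry to the cell cycle fell. In the set for G1 and S phase 19 of 29 fell and 4 rose. The G1 cyclins CLN1, CLN2 and CLN3 fell by 2.72, 2.83 and 2.56, and the S phase cyclin CLB6 had 0.50 and 0.61 FPKM at 3 h, against 7.33 and 14.2 FPKM at 0 h (-4.05 ± 0.50). Ribonucleotide reductase split by subunit: the large subunit RNR1 had 20.7 and 15.4 FPKM at 3 h, against 116 and 125 FPKM at 0 h (-2.55 ± 0.09), and the small subunit gene RNR4 had 2494 and 2494 FPKM at 3 h, against 515 and 529 FPKM at 0 h (2.45 ± 0.07). RNR2, of the same small subunit, rose by 2.96 ± 0.09 and overlaps YJL026C-A. Of 23 G2 and M phase genes 11 fell and 4 rose (15 and 2 with library totals); the mitotic cyclins CLB1 and CLB2 fell by 1.41 and 1.74.

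Histone genes split by locus. The pair HTA2 and HTB2 had 114 and 153 FPKM at 3 h, against 1330.2 and 1244 FPKM at 0 h (-3.07 ± 0.13) and 105 and 137 FPKM at 3 h, against 1658 and 1656 FPKM at 0 h (-3.58 ± 0.11). The pair HTA1 and HTB1, which encodes the same histones elsewhere, had 1690.4 and 1594 FPKM at 3 h, against 1364 and 1315 FPKM at 0 h for HTA1 (0.48 ± 0.09), which is higher with TMM. Of the H3 and H4 genes, HHF2 had 243 and 277 FPKM at 3 h, against 2540.3 and 2413 FPKM at 0 h (-3.06 ± 0.11), and HHT2 had 792 and 860.3 FPKM at 3 h, against 2124 and 2076 FPKM at 0 h (-1.15 ± 0.08), while HHF1 had 2366 and 2531 FPKM at 3 h, against 2629 and 2447 FPKM at 0 h and was not called. Reads of paralogous histone genes may be divided uncertainly, although each pair of values lay close between libraries.

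The genes edited in the mutants belong to a chromatin set with no common direction. Of its 20 genes 7 rose and 8 fell, shares near those of all genes tested (35.6% and 34%), and 4 and 10 with library totals. RPH1 had 43.7 and 32.8 FPKM at 3 h, against 19.5 and 19.3 FPKM at 0 h (1.17 ± 0.14), and JHD1, a further demethylase of this residue, had 33.5 and 42.6 FPKM at 3 h, against 22.1 and 23.6 FPKM at 0 h (0.93 ± 0.12). The H3K4 demethylase JHD2 rose by 1.43 ± 0.13, and GIS1, a paralog of RPH1, was not called (-0.10 ± 0.17). SET2, which overlaps YJL169W, had 10 and 9.54 FPKM at 3 h, against 26.8 and 25.1 FPKM at 0 h (-1.22 ± 0.13).

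Some developmental and surface genes changed. Of 19 tested meiosis and sporulation genes 8 rose and 2 fell; SPS100, a spore wall protein, had 79.9 and 65.8 FPKM at 3 h, against 1.74 and 1.02 FPKM at 0 h (5.90 ± 0.28), and IME2, a meiotic kinase, had 10.5 and 9.12 FPKM at 3 h, against 2.42 and 2.86 FPKM at 0 h (2.08 ± 0.21), while its activator IME1 had 7.17 and 5.65 FPKM at 3 h, against 6.03 and 6.30 FPKM at 0 h and was not called. Of 7 a-specific genes 3 rose and 4 fell. The alpha-factor receptor STE2 had 35.1 and 29.1 FPKM at 3 h, against 181 and 192 FPKM at 0 h (-2.35 ± 0.13), and MFA1 rose by 1.79 ± 0.18. FLO11, the main adhesin, had 16.1 and 12.6 FPKM at 3 h, against 72.00 and 92.02 FPKM at 0 h (-2.33 ± 0.17). Of 19 tested seripauperin and mannoprotein genes 9 rose and none fell, a family of near-identical members.

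Genes were also compared by position, length and annotation. Over all genes tested, 35.6% were higher and 34% lower. Of 137 tested genes within 15 kb of a chromosome end 48 were higher and 20 lower, with a median of 0.21. Their share of higher genes was thus near that of all genes, and their share of lower genes was smaller. Of 493 genes of at least 3 kb, 135 were higher and 221 lower (median -0.16), and of 1831 genes shorter than 600 bases 509 were higher and 402 lower. Among 1511 genes with no standard name 439 were higher and 202 lower, against 1875 and 2009 of 4992 named genes.

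The 3 h state was then set against 1 h, the earlier time in the same medium. Between 3 h and 1 h, 1781 genes were higher (27.4%) and 1214 lower (18.7%); with library totals in place of TMM these were 1010 and 2623, so the balance of directions depends on the scaling. Both comparisons of 3 h share the same 3 h libraries, and their values are given side by side only. The groups below kept their direction under each scaling unless stated.

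Ribosome genes were higher at 3 h than at 1 h while still below 0 h. The median FPKM of the 137 ribosomal protein genes was 2139 and 2073 at 0 h, 154 and 145 at 1 h and 482 and 494 at 3 h. Of them 135 were higher at 3 h than at 1 h and none lower. All 48 small subunit processome genes and 56 of 57 60S assembly genes were higher as well. NSR1, nucleolin, had 527 and 496 FPKM at 0 h, 0.95 and 0.60 FPKM at 1 h and 76.4 and 74.3 FPKM at 3 h (3 h over 1 h 6.85 ± 0.19); it overlaps YGR160W. RPA49 had 184 and 194 FPKM at 0 h, 2.10 and 1.80 FPKM at 1 h and 43.2 and 41.7 FPKM at 3 h (4.72 ± 0.19), and YEF3 had 1396 and 1449.6 FPKM at 0 h, 12.6 and 13.3 FPKM at 1 h and 238 and 202 FPKM at 3 h (4.39 ± 0.11). The CTP synthase URA7, with an overlap of YBL039C-A, was higher by 6.03 ± 0.24. The initiator tRNA gene IMT1, whose copies share their sequence, was higher by 5.76 ± 1.91, a far less certain value. The call of IMT1 at 3 h against 0 h was lost with DESeq2. Mitochondrial ribosomal protein genes did not show this course: their median was 425 and 422 at 0 h, 72.8 and 75.00 at 1 h and 66.6 and 70.4 at 3 h. Of those 71, 24 were higher and 2 lower at 3 h than at 1 h with TMM, and 3 and 19 with library totals.

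Sulfur genes went the other way. The median of the 9 sulfate genes was 28.1 and 25.5 FPKM at 0 h, 1256 and 1214 at 1 h and 252 and 212 at 3 h, and all 9 were lower at 3 h than at 1 h. MET3 had 28.5 and 26.2 FPKM at 0 h, 3843 and 3733 FPKM at 1 h and 715 and 595 FPKM at 3 h (-2.24 ± 0.09). The methionine permease MUP1 had 108 and 105 FPKM at 0 h, 923 and 855 FPKM at 1 h and 81.2 and 66.2 FPKM at 3 h (-3.30 ± 0.10), and CYS3, cystathionine gamma-lyase, had 202 and 206 FPKM at 0 h, 1749 and 1816 FPKM at 1 h and 186 and 181 FPKM at 3 h (-2.99 ± 0.09). Both were thus near their rich-medium level again. MET8 was lower by 2.84, TOS6, a wall protein, by 2.85, and SRL1, a wall mannoprotein overlapping YOR248W, by 3.20.

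Glycolysis crossed its rich-medium level between the times. The 14 enzyme genes had a median of 1740.0 and 1782 FPKM at 0 h, 872 and 866 at 1 h and 3270.0 and 3518 at 3 h, and 13 were higher at 3 h than at 1 h. Of 25 chaperone genes 23 were higher at 3 h than at 1 h and none lower, although 4 of the 25 were lower at 3 h than at 0 h. Proteasome genes were higher in 28 of 37 with TMM, and in 5, with 2 lower, by library totals. Peroxisome and fatty acid oxidation genes were lower at 3 h than at 1 h in 18 of 27 and higher in 2, with 93.1 and 89.6 FPKM at 0 h, 1207 and 1289 FPKM at 1 h and 301 and 255 FPKM at 3 h for FOX2, the second enzyme of beta-oxidation. In the G2 and M phase set, 19 of 23 were lower at 3 h than at 1 h and none higher.

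**Figure D4:**
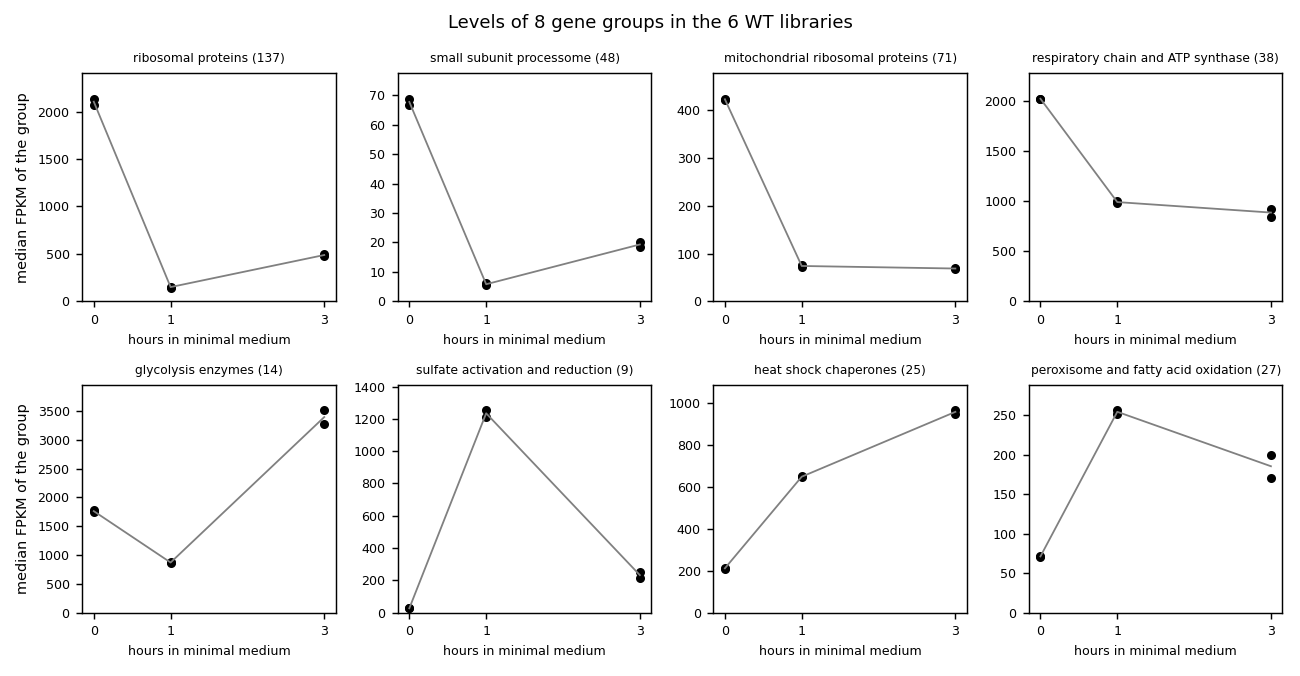
Each panel plots the median FPKM of a gene group in the 6 WT libraries against hours in minimal medium, with points for libraries and lines through their means; every axis starts at 0. Ribosomal protein genes are lowest at 1 h, sulfate genes highest at 1 h, and glycolysis genes highest at 3 h.

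The change from 0 h to 3 h was also measured in the 3 mutants, whose libraries are separate from those of WT. In rph1Δ the opposite mating type cannot be told apart from the edit. In H3K36A the same holds for the near absence of HHT1 and HHT2 reads. In rph1Δ 2286 genes were higher (35.2%) and 2161 lower (33.2%) at 3 h, in set2Δ 2138 (32.9%) and 2135 (32.8%), and in H3K36A 2158 (33.2%) and 2109 (32.4%). Of the 2314 genes that rose in WT, 1963 rose in rph1Δ, which is 84.8% of the WT set and 85.9% of the rph1Δ set. In set2Δ 1724 did (74.5% of the WT set and 80.6% of the set2Δ set), and in H3K36A 1803 (77.9% and 83.5%). Of the 2211 that fell in WT, 1910 fell in rph1Δ (86.4% and 88.4%), 1750 in set2Δ (79.1% and 82%) and 1790 in H3K36A (81% and 84.9%). In all 3 mutants 1569 of the risers rose and 1619 of the fallers fell. Of the WT risers 9 fell in rph1Δ, 67 in set2Δ and 46 in H3K36A, and of the WT fallers 22, 67 and 49 rose in those strains.

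The size of the change was compared as well. Tested as the change in the mutant less the change in WT, 440 genes differed in rph1Δ (6.77%; 196 or 3.01% higher and 244 or 3.75% lower), 2123 in set2Δ (32.6%; 883 or 13.6% higher and 1240 or 19.1% lower) and 1771 in H3K36A (27.2%; 692 or 10.6% higher and 1079 or 16.6% lower). With library totals the split was 269 higher and 146 lower in rph1Δ, 1589 and 654 in set2Δ, and 1148 and 561 in H3K36A, so only directions kept under each scaling are given by group. The rph1Δ count rests on few libraries: it lay between 119 and 1182 when 1 library was left out, and each of the 8 libraries left out moved it over 1.5 times. It was 242 and 152 without WT 0 h replicate 1 and 2, 1182 and 142 without WT 3 h replicate 1 and 2, 119 and 257 without rph1Δ 0 h replicate 1 and 2, and 165 and 175 without rph1Δ 3 h replicate 1 and 2. Mating type differs in that comparison, and its part was not tested.

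Many stress genes had a lower change in set2Δ and H3K36A than in WT. A lower change is not always a smaller rise, as 4 of 25 chaperone genes and 1 of 14 hydrophilin genes fell in WT. Of 25 chaperone genes 24 had a lower change in set2Δ and 24 in H3K36A than in WT (23 and 22 with library totals). Their median change was 1.30 in set2Δ, 1.43 in H3K36A and 2.37 in WT. HSP30, a plasma membrane stress protein, changed by 0.54 in set2Δ and 3.95 in WT, a difference of -3.41 ± 0.23. Of 14 hydrophilin genes 13 and 11 had a lower change than in WT, with medians of 3.10 in set2Δ, 3.36 in H3K36A and 4.56 in WT. Of 20 peroxide defence genes 16 and 15 did (14 and 8 with library totals), of 9 trehalose genes 7 and 8, of 12 glycogen genes 8 and 8, and of 24 thiamine and vitamin B6 genes 11 and 13. Of 37 proteasome genes 29 and 31 did with TMM, and 10 and 15 with library totals, so this last count depends on the scaling.

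Many ribosome assembly genes had a higher change in the same strains than in WT. Of 48 small subunit processome genes 30 in set2Δ and 28 in H3K36A did, and none had a lower one. Their median was -0.91 in set2Δ, -1.0 in H3K36A and -1.66 in WT. Of 57 60S assembly genes 29 and 32 had a higher change and none a lower one, although up to 2 were lower in set2Δ and 1 in H3K36A with a library left out. DRS1, a helicase of 60S assembly, changed by 1.2 in set2Δ, 1.02 in H3K36A and -2.18 in WT, a difference of 3.39 ± 0.18 for set2Δ and 3.20 ± 0.18 for H3K36A. Of 23 G2 and M phase genes 14 and 15 had a higher change than in WT and none a lower one, and of 29 G1 and S phase genes 15 and 12 a higher one and 3 in each a lower one. Of 14 glycolysis genes 10 had a higher change in rph1Δ than in WT and none a lower one (6 to 9 higher with a library left out), while 12 had a lower change in set2Δ and 4 in H3K36A. Their median change was 1.81 in rph1Δ, 0.29 in set2Δ, 0.75 in H3K36A and 1.08 in WT.

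Ribosomal protein genes had another balance, which varied with strain and scaling. Of 137, 41 had a lower change in H3K36A than in WT and 2 a higher one, and 11 and 8 with library totals; the lower count was 17 to 48 with a library left out. In rph1Δ 19 had a lower change and none a higher one, and 1 to 42 were lower with a library left out. In set2Δ 3 were lower and 9 higher, and the sign of the median difference turned with library totals. Respiratory chain genes more often had a higher change than in WT: of 38, 10 were higher and 3 lower in set2Δ, and 11 and 3 in H3K36A (18 and 3, and 19 and 3, with library totals). Of 19 TCA cycle genes 8 were higher and 1 lower in set2Δ. For mitochondrial ribosomal proteins in set2Δ and H3K36A, and for the TCA cycle in H3K36A, the balance turned with the scaling and no direction is given.

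**Figure D5:**
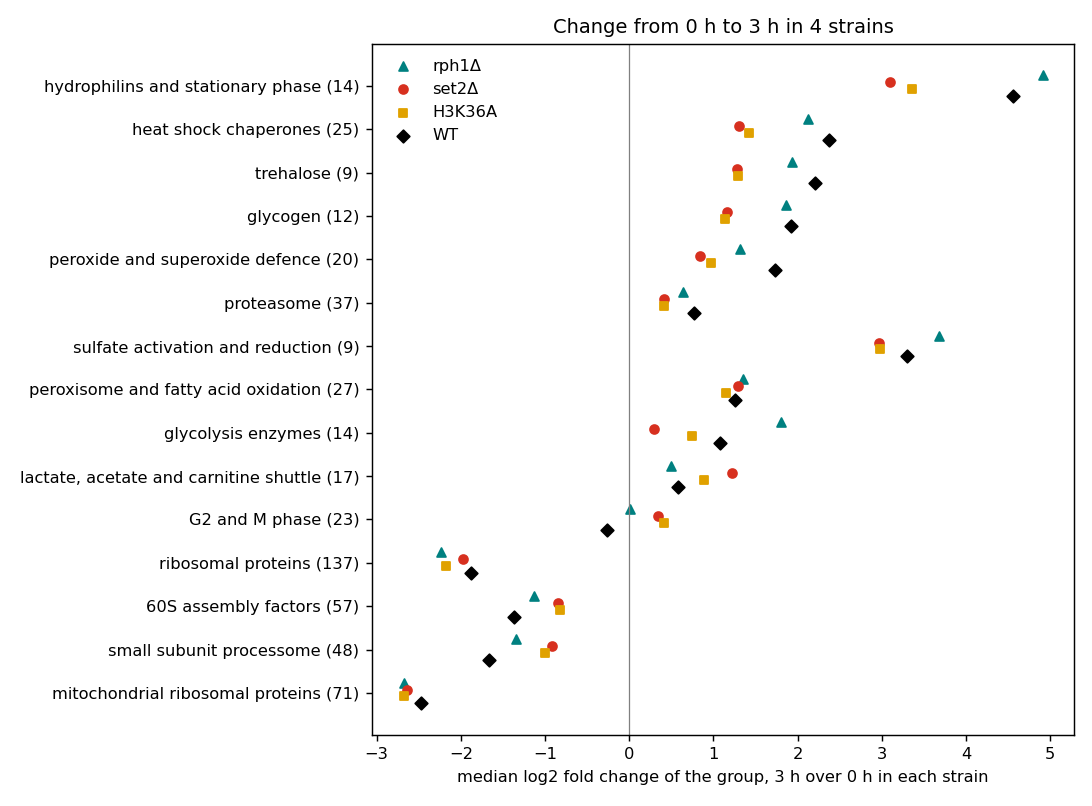
Each row is a gene group and each symbol the group's median log2 fold change of 3 h over 0 h in rph1Δ, set2Δ, H3K36A or WT. For hydrophilins the medians are 4.91, 3.10, 3.36 and 4.56, and for the small subunit processome -1.34, -0.91, -1.0 and -1.66.

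The 2 libraries at 3 h lay farther apart than those at the other times. Over 4561 genes with a mean log2 CPM over 5 in WT, the median absolute log2 difference between replicates was 0.0796 at 0 h, 0.0809 at 1 h and 0.154 at 3 h, and 10, 7 and 81 genes differed at least 1.5-fold. Replicate 1 at 3 h was lower than replicate 2 in respiratory genes (median -0.20) and mitochondrial ribosomal protein genes (-0.18). It was higher in sulfate genes (0.18). All of these differences are small beside the changes reported for the groups.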

How the data were processed

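RNA-seq libraries of S. cerevisiae (24, in 12 groups of 2) were read from 1 deposited table. Per the file headers it holds a raw read count per gene and library and the authors' FPKM of the same libraries; 100% of deposited FPKM values equal the count scaled by gene length and library total within 0.0051. Among tools, the submitters' processing notes list HISAT2 (2.0.1), HTSeq (0.6.1) and cutadapt (1.9.1), with the build sacCer3. Strand settings: not given in the sources used here. In all 1420 genes overlap another. Library totals lay between 6623458 and 7677684 counts, and 4 libraries carry the main comparison, a number that limits precision.

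Counts were fitted with edgeR 4.0.16 (R 4.3.3; TMM, quasi-likelihood) in one model of 12 group means with 12 residual degrees of freedom, for the 6503 genes that reached FPKM 1 in 2 or more libraries; 623 stayed below. Benjamini-Hochberg adjustment ran over all tested genes, with a threshold of 0.05. The script was tested on counts simulated from its own fitted means and spread, which checks the code and not whether that spread suits the WT 3 h libraries. Alternatives were other scalings, DESeq2 1.42.0, limma 3.58.1, other filters, a replicate block, only the groups compared, and leaving out each library.

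The comparison, the gene lists (62) and motifs were chosen with earlier results of these data known. Genes were named by rule: the 12 highest and 12 lowest called changes of at least 2-fold whose higher group averaged 10 FPKM or more, with no overlap between groups, the 10 most abundant genes of each time, of each list the members or its 4 highest and 4 lowest, and 5 (3 h against 1 h) or 3 (between strains) in each direction. Some results under this rule are not reported here. Genes named beyond it, such as isozyme pairs, were chosen after their values were seen. Of the gene IDs, 6048 matched the R64 annotation and 5994 had identical coordinates.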

Additional observations from a re-analysis of the deposited data

Results flagged for a closer look

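Some genes changed from 0 h to 3 h by a different amount in a mutant than in WT. In each strain the 3 highest and 3 lowest differences among called genes are given as the log2 change in the mutant less that in WT, tested as an interaction in edgeR's quasi-likelihood fit.

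In rph1Δ all 6 were mating genes, and the 2 strains express the pheromones of opposite mating types. The a-specific genes MFA2, STE2 and STE6 differed by 3.57 ± 0.75, 2.84 ± 0.26 and 2.84 ± 0.25. The alpha-specific genes MF(ALPHA)2 and SAG1 differed by -9.68 ± 1.12 and -3.24 ± 0.20, and FUS1, a cell fusion gene, by -3.26 ± 0.34.

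In set2Δ the differences were 4.20 ± 1.53 for JIP3, which overlaps YLR332W, 3.39 ± 0.18 for DRS1 and 2.96 ± 0.47 for OPT2, an oligopeptide transporter. They were -3.76 ± 0.41 for the a-specific ASG7, -3.63 ± 1.16 for DDI2, which has the near-identical copy DDI3, and -3.41 ± 0.23 for HSP30. In H3K36A they were 3.65 ± 0.46 for OPT2, 3.20 ± 0.18 for DRS1 and 2.81 ± 0.32 for the sporulation gene SPS4. On the lower side they were -3.52 ± 1.09 for LSO1, a small ribosome-bound protein, -2.96 ± 0.58 for the seripauperin PAU2 and -2.75 ± 0.17 for OYE3, an NADPH oxidoreductase. OPT2 and DRS1 were in the highest 3 of both set2Δ and H3K36A, which share the WT libraries in this test.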

How the results depend on the processing

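Counts for WT at 3 h against 0 h moved by less than 1.5 times under every alternative run. Against 2314 genes higher and 2211 lower, library totals gave 1914 and 2577, median-of-ratios scaling 2144 and 2373, DESeq2 2108 and 2334, limma 2339 and 2247, and a fit of only the groups compared 2043 and 2091. Leaving out 1 library gave 2106 to 2226 higher and 2050 to 2120 lower.

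Labels number the replicates of every group, but the numbers did not pair the samples in a common direction. Correlations of deviations between groups ran from -0.56 to 0.52, and 20 of 66 pairs of groups were over 0.1. The correlation of WT 0 h with WT 3 h was -0.14. With the replicate block, 2300 were higher and 2199 lower; with WT 3 h numbers exchanged, an alternative chosen after seeing the data, 2319 and 2220.

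Between strains, 440 genes differed in rph1Δ, and leaving out 1 library gave 119 to 1182; the cause was not tested. For set2Δ this range was 1542 to 2493 and for H3K36A 1257 to 2076, and a fit of only the groups compared gave 1421 and 1370.

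Of 340 genes named, 322 were called at 3 h against 0 h, and 314 kept the call and direction under all alternatives. CUP1-2, GAC1, HHT1, HTB1, IMT1, MFA2, MUP1 and SAG1 lost it under at least 1. PFK1, PFK2 and RPL41B were called without WT 3 h replicate 2 (0.21, 0.23 and -0.77). CHO2, not called, turned to -0.18 with library totals. Of 62 list medians, 6 changed sign under an alternative: endoplasmic reticulum folding, arginine, branched-chain, purine, pyruvate and inositol genes, all within 0.22 of zero. With 2 libraries a group, the number of libraries limits which small changes could be called.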

Other observations

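Most further gene groups had members moving both ways. Of 22 genes for pyruvate, ethanol and acetyl-CoA 10 rose and 6 fell. The cytosolic aldehyde dehydrogenase ALD3 had 484 and 413 FPKM at 3 h, against 16.99 and 13.8 FPKM at 0 h (5.05 ± 0.12), and pyruvate carboxylase PYC1 had 474 and 328 FPKM at 3 h, against 1188 and 1183 FPKM at 0 h (-1.38 ± 0.12). Of 17 genes for lactate, acetate and the carnitine shuttle 11 rose and 5 fell, the D-lactate dehydrogenases DLD1 and DLD2 falling by 0.67 and 1.38. Of 20 hexose transporter and kinase genes 8 rose and 7 fell, near the shares of all genes tested (35.6% and 34%).

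Of 19 genes of oxygen and heme control 5 rose and 12 fell. HAP1, the heme-activated factor, had 25.3 and 21.8 FPKM at 3 h, against 12.1 and 12.02 FPKM at 0 h (1.15 ± 0.10), and AAC1, a minor ADP/ATP carrier, had 131 and 135 FPKM at 3 h, against 72.7 and 68.5 FPKM at 0 h (1.10 ± 0.10) beside the fall of PET9. Of 14 tested haploid and pheromone genes 3 rose and 7 fell; STE12, the factor of the pheromone response, had 8.91 and 6.12 FPKM at 3 h, against 27.7 and 32.2 FPKM at 0 h (-1.81 ± 0.20), and FAR1, which arrests the cycle in that response, had 6.98 and 5.36 FPKM at 3 h, against 18.6 and 20.8 FPKM at 0 h (-1.49 ± 0.14). Of 8 flocculin genes 4 rose and 2 fell, of 13 fatty acid synthesis genes 6 rose and 7 fell, of 11 genes for inositol and its regulators 5 rose and 4 fell, and of 4 alpha-specific genes 2 rose and none fell.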
